A study of Mus musculus with 18 samples.

Results

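The comparison described here set wild type macrophages treated with interferon (IFN) directly against wild type macrophages treated with interleukin 4 (IL4). It rests on 6 of the 18 libraries of the study: libraries 4, 5 and 6 (IFN) and libraries 7, 8 and 9 (IL4), named by the numbers in their titles. All genes were taken that passed a filter on low counts, which left 12514 of 21954 genes. The cells were mouse bone marrow derived macrophages labelled as controls of wild type genotype, and the treatments are described only as cytokines for the M1 and the M2 state. The labels give neither the type, the dose nor the duration of the IFN or IL4 treatment, nor the age of the mice. The 3 untreated wild type libraries (1 to 3) serve as a reference for levels. The other 9 libraries came from macrophages of an L13a knockout under the same 3 conditions, and their 6 IFN and IL4 libraries gave a second measurement of the same contrast. Nothing in the labels says that libraries of a group came from separate mice or cultures, so the p-values measure the spread between these libraries, which may in part be technical.

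Macrophages take up opposed states under these cytokines. Interferons signal through Janus kinases, which leads to a first wave of transcription factors such as IRF1 and then to genes of antigen presentation, chemokines and cell-autonomous defence against microbes. IL4 signals through its receptor and STAT6, which drives arginase 1, chitinase-like and resistin-like proteins, and lectin receptors of what is called alternative activation. The M1 state is known for making nitric oxide from arginine, and the M2 state for breaking arginine down to ornithine.

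The 6 libraries held between 19070826 and 22772587 expected counts. Levels are given as CPM, counts scaled to the same library size, after scaling with edgeR's TMM factors, and a gene is called when its adjusted p (edgeR's quasi-likelihood test, Benjamini-Hochberg over the 12514 genes) is under 0.05. Csf1r, the receptor for the growth factor that macrophages depend on, stood at 3367, 3022 and 3262 CPM after IFN and at 3265, 2881 and 3699 CPM after IL4. Adgre1, which encodes the F4/80 antigen, stood at 1262, 1649 and 2218 CPM after IFN and at 1742, 1541 and 1937 CPM after IL4. The groups overlapped for both genes, neither was called, and their small log2 differences of -0.03 each changed sign when single libraries were left out. On the whole list of 20 macrophage identity genes, 4 were higher after IFN, among them Fcgr1 (5.01), Aif1 (3.35) and Mpeg1 (2.25). On the IL4 side there were 3, namely Cebpa (-2.06), Lgals3 (-1.72) and Csf2rb (-1.46). These are 20% and 15% of the list, against 11.4% and 9.09% of all tested genes. Summed markers of T and NK cells were at most 2.35 CPM in the IFN libraries and 4.57 CPM in the IL4 libraries. Other blood cell lists stood higher. Neutrophil markers (3 of 12 tested) summed to 43.1 to 79.0 CPM after IFN and 39.8 to 73.9 CPM after IL4. Erythroid and megakaryocyte markers (3 of 9 tested) summed to 20.3 to 101 CPM after IFN and 48.2 to 136 CPM after IL4. In each of these 2 lists 1 gene was called, higher after IL4, and the part of such cells was not tested. Summed fibroblast markers (12 genes tested) ran from 86.4 to 186 CPM after IFN and from 192 to 443 CPM after IL4, against 801 to 877 CPM in the untreated libraries. None of these 12 genes was called, and their part in the results below was not tested. Y-linked transcripts were present in libraries 4, 5, 7 and 8 and absent in 6 and 9, so each group held 2 libraries with them and 1 without. The untreated libraries 2 and 3 lay far closer to each other than any other pair of a group: the chi-square of their counts per degree of freedom was 6.00, against 51.5 to 184 in the other 17 pairs. They were kept as separate samples because they still differed by more than counting noise, which does not show that they came from separate cultures. They enter the IFN against IL4 test only through the shared estimate of spread, and without library 3 the number of genes called was 2441.

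The 2 cytokine states differed widely. Of the 12514 genes, 2567 were called (20.5%): 1429 were higher after IFN (11.4%) and 1138 were higher after IL4 (9.09%). These 2 shares are the ones to set beside the counts of called members in each gene list. The median fold of the called genes was 2.22 on the IFN side and 2.17 on the IL4 side. More than 2-fold differences were fitted for 821 of the genes higher after IFN and 628 of those higher after IL4, and more than 8-fold differences for 230 and 179. The median log2 difference of all genes was -0.02. The 3 IFN libraries and the 3 IL4 libraries did not overlap in 1409 of the 1429 genes and in 1125 of the 1138 genes, where 36.1% of all tested genes had groups that did not overlap. When the test asked for a difference beyond 2-fold (glmTreat), 697 genes were called, 421 higher after IFN and 276 higher after IL4. With libraries 4 and 5 against 7 and 8 alone, all of which hold Y-linked transcripts, 1184 genes were called.

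**Figure D1:**
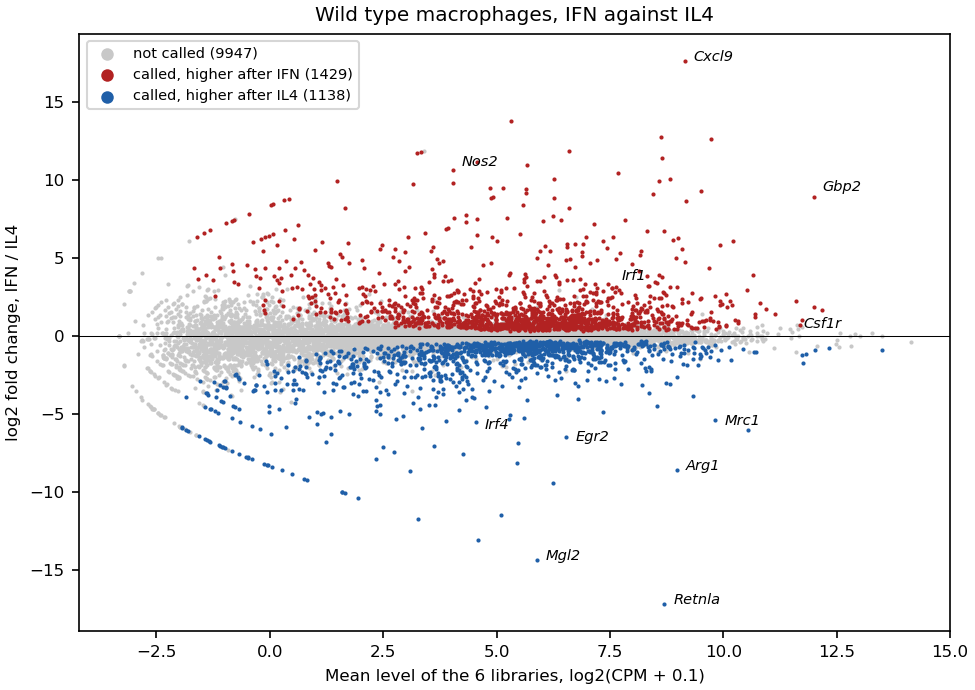
Each point is 1 of the 12514 genes: the horizontal axis gives its mean level over the 6 libraries as log2(CPM + 0.1) and the vertical axis its log2 fold change, IFN over IL4, with called genes in red (1429, higher after IFN) and blue (1138, higher after IL4). Cxcl9 and Retnla lie at the top and bottom, where the other group held no counts and the height depends on the fit's prior count, while Csf1r lies at 0.

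On the list of 12 transcription factors and signalling genes of the interferon response, 11 were higher after IFN and none was higher after IL4, with a median log2 difference of 3.00. Irf1, an early factor that acts on many interferon-induced genes, held 705, 713 and 831 CPM after IFN and 51.1, 26.7 and 84.3 CPM after IL4, a log2 difference of 3.79 ± 0.38 (SE, n = 3 and 3 libraries; adjusted p = 2.59e-06). The 2 groups were apart, and 2 of the 3 IL4 libraries lay above the untreated range of 31.3 to 44.7 CPM. Batf2 (log2 difference 5.75), a partner of IRF1, and Irf8 (2.54), a factor of the myeloid lineage, were also higher after IFN. Jak2, a kinase of the interferon gamma receptor, was the member that was not called, at 0.14.

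Promoters of 4 genes are shown as examples of sequence elements known to bind factors of these pathways. They were chosen by hand and each holds a match, so they do not show how common the elements are. The sequences are those of RefSeq on GRCm38.p6, given 5′ to 3′ on the gene's strand and ending before the start of the gene in both RefSeq and GENCODE. Capitals mark matches to TTCNNNGAA (the GAS motif, the gamma-activated sequence) in Irf1, to GAAA, any 2 bases and GAAA (the core of the interferon-stimulated response element, ISRE) in Cxcl10 and Socs1, and to TTC, any 4 bases and GAA (the motif bound by STAT6) in Retnla. The GAS and STAT6 motifs differ only in their spacer, so no single match counts for both.
Irf1 (chr11:53769764-53770013, plus strand): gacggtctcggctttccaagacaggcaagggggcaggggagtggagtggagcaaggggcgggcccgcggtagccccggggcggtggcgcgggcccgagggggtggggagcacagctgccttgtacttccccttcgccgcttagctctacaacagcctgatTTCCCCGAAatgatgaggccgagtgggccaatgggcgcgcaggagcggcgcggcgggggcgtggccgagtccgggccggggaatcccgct
Cxcl10 (chr5:92348890-92349139, minus strand): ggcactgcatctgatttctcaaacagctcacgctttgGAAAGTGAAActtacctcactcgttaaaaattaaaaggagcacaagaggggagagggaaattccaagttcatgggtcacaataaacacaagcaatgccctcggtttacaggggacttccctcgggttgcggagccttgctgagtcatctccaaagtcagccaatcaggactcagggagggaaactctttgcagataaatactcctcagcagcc
Socs1 (chr16:10785537-10785786, minus strand): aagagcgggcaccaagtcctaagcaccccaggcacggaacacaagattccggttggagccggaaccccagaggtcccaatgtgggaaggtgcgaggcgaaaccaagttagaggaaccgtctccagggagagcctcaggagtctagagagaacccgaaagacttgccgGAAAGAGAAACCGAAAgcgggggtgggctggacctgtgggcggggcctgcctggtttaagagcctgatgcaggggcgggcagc
Retnla (chr16:48842359-48842550, plus strand): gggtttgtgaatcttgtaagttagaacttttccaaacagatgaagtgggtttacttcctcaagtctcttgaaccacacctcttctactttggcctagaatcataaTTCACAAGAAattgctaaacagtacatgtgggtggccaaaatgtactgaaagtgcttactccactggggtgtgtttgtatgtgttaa
The match begins 90 bases before the RefSeq start in Irf1, 213 in Cxcl10 and 145 in Retnla, and Socs1 holds 2 overlapping matches that begin 83 and 77 bases before it.

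Over all genes, the ISRE core was the motif whose share differed most between the called groups. Counting both strands and a window from 250 bases before to 50 after each start, it was found for 11.2% of the 1131 genes higher after IFN that had a promoter in the table. The share was 2.92% for the 889 genes higher after IL4, 3.18% for the 7950 tested genes that were not called and 3.99% for all 27025 genes of the table. The GAS motif was found for 9.64% of genes higher after IFN, 6.86% of genes higher after IL4, 8.31% of genes not called and 9.55% of all genes. The STAT6 motif was found for 6.90%, 7.54%, 6.64% and 8.01% of the same groups. These shares are descriptions, without a test, and a match is no evidence of binding. Genes of chromosome 18 are left out, and of the remaining called genes 81.0% on the IFN side and 80.4% on the IL4 side had a promoter in the table.

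**Figure D2:**
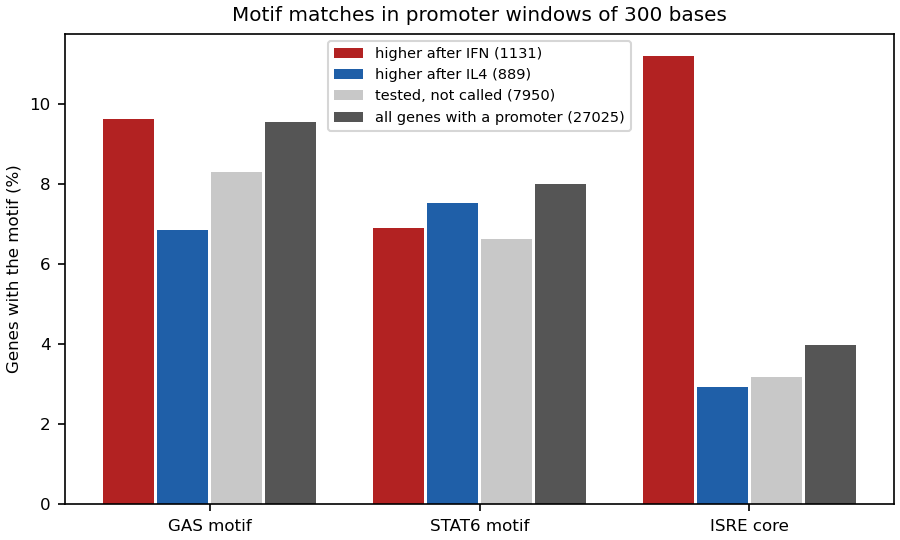
Bars give the percent of genes with at least 1 match of each motif in any of their promoter windows, for genes higher after IFN (red), higher after IL4 (blue), tested and not called (light grey) and all genes of the table (dark grey). The ISRE core stands at 11.2% in the first group and between 2.92% and 3.99% in the others, while the bars of the GAS and STAT6 motifs lie closer together.

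The effectors of cell-autonomous defence were higher after IFN without exception among those tested. These are large GTPases that assemble on the membranes of intracellular microbes. All 10 guanylate binding proteins tested were called, with a median log2 difference of 9.00, and all 11 immunity related p47 GTPases were called, with a median of 5.72. Gbp2 held 7992, 7353 and 8979.8 CPM after IFN and 17.2, 8.24 and 26.2 CPM after IL4, a log2 difference of 8.88 ± 0.57 (SE; adjusted p = 3.3e-08). The IL4 libraries lay around the untreated level of 10.9 to 19.2 CPM, and all IFN libraries were far above both. Irgm1, which helps to control intracellular bacteria, held 996, 1022 and 1263 CPM after IFN and 35.7, 29.3 and 55.8 CPM after IL4, a log2 difference of 4.76. Its 3 IFN libraries were likewise far above all IL4 libraries. Gbp10 held 65.8, 73.8 and 99.4 CPM after IFN and no counts after IL4, which makes its mean at least 1739-fold higher (against 3 counts over the IL4 group). This bound and the later ones of this kind compare group means and leave out the spread between libraries. Gbp4, Iigp1 and Tgtp1 differed by 12.78, 12.64 and 11.41 on the log2 scale, but their IL4 levels were under 1 CPM in every library, and without IL4 library 9 the values were 13.89, 13.77 and 12.99. Without IL4 library 7 those of Gbp4 and Tgtp1 were 12.18 and 10.80. The genes lie in clusters, with Gbp2, Gbp2b, Gbp3, Gbp5 and Gbp7 on chromosome 3 and Gbp4, Gbp6, Gbp8, Gbp9 and Gbp10 on chromosome 5 (GRCm38). Gbp4, Gbp8 and Gbp9 overlap in the annotation and the families have near-identical members such as Tgtp1 and Tgtp2, so the split of reads between neighbours is uncertain.

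Genes best known as targets of type I interferon followed the same direction. All 31 tested genes of this signature were called higher after IFN, from Eif2ak2 (log2 difference 1.54), the double-stranded RNA kinase, to Oasl1 (7.70), a relative of the oligoadenylate synthetases, with a median of 3.67. Zbp1, a sensor of Z-form nucleic acid, held 243, 262 and 510.0 CPM after IFN and 5.48, 4.02 and 10.8 CPM after IL4, a log2 difference of 5.64. The summed level of the 31 genes was 5703, 5455 and 12930 CPM in IFN libraries 4, 5 and 6 and 509 to 904 CPM after IL4. IFN library 6 was the highest for this list, and all 3 IFN libraries were above every IL4 library.

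Antigen presentation was higher after IFN on both arms. For MHC class I, which shows peptides from inside the cell to CD8 T cells, 19 of 20 tested genes were higher after IFN and none after IL4, with a median log2 difference of 1.89. Tap1, a subunit of the peptide transporter, held 599.9, 658 and 894 CPM after IFN and 50.8, 37.7 and 55.8 CPM after IL4. The groups were apart, at a log2 difference of 3.90 ± 0.23 (SE; adjusted p = 1.68e-08), and the IL4 libraries lay near the untreated range of 55.1 to 69.9 CPM. The immunoproteasome subunits Psmb8 and Psmb9 differed by 2.44 and 2.74. For MHC class II, which presents peptides from outside the cell to CD4 T cells, 10 of 12 tested genes were higher after IFN, with a median of 1.89. Ciita, the master regulator of class II genes, held 249, 168 and 188 CPM after IFN and 22.8, 21.1 and 36.4 CPM after IL4. Every IL4 library exceeded the untreated 3.95 to 6.12 CPM while remaining far below every IFN library, and the log2 difference between the cytokines was 2.91 ± 0.49 (SE; adjusted p = 0.000392). H2-DMa, which loads peptides onto class II molecules, showed the same order, with 392.2, 455 and 508 CPM after IFN, 72.4, 148 and 187 CPM after IL4 and 22.5 to 28.1 CPM untreated. The lysosomal protease Ctss (0.18) and the thiol reductase Ifi30 (0.09) were the members of this list that were not called.

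Ligands that tune T cells split between the states. Of 12 costimulatory and checkpoint ligands, 6 were higher after IFN and 2 after IL4. Cd86, a ligand of CD28 and CTLA4, held 133, 116 and 173 CPM after IFN and 2.80, 2.51 and 4.19 CPM after IL4, a log2 difference of 5.47. Cd274, which encodes PD-L1, held 988, 572 and 556 CPM after IFN and 159.8, 62.4 and 84.4 CPM after IL4, a log2 difference of 2.79 ± 0.57 (SE; adjusted p = 0.00211). Both genes had groups that did not overlap, but Cd274 was above the untreated 11.4 to 30.1 CPM in every IL4 library, whereas Cd86 was below its untreated 5.69 to 8.16 CPM in every IL4 library. Pdcd1lg2, which encodes PD-L2, the other ligand of the same receptor, went the opposite way. It held 1.16, 1.19 and 0.602 CPM after IFN, 19.9, 12.1 and 32.9 CPM after IL4 and no counts in the untreated libraries, a log2 difference of -4.44 ± 0.60 (SE; adjusted p = 0.000107). Cd276 (-2.89), which encodes B7-H3, was the other ligand higher after IL4, and Icosl (3.51), the ligand of ICOS, was higher after IFN.

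Chemokines and cytokines divided by gene rather than by family. Of 9 CXC and CX3C chemokines, 3 were higher after IFN (33.3%) and 1 after IL4 (11.1%). Of 12 CC chemokines, 4 were higher in each direction (33.3% each, against 11.4% and 9.09% of all tested genes). The gene of the first list called towards IL4 was Cxcl3, an attractant of neutrophils, which held at most 0.431 CPM after IL4 and no counts after IFN (at least 7.14-fold higher, adjusted p = 0.0419). Its call was lost whichever of the 6 libraries was left out (adjusted p from 0.066 to 0.10). Cxcl9, which attracts T cells through CXCR3, held 678, 339.8 and 2380.2 CPM after IFN and no counts in the 3 IL4 libraries. That makes its mean at least 24728-fold higher, with a wide spread between the IFN libraries that this bound leaves out. Cxcl10, another ligand of CXCR3, held 609.5, 396 and 1727 CPM after IFN and 0.216, 0.553 and 1.78 CPM after IL4, a log2 difference of 10.05 ± 1.17 (SE; adjusted p = 1.44e-05). IFN library 6 was the highest for both genes, and without it the log2 difference of Cxcl10 was 9.19 (11.22 without IL4 library 9). The fitted log2 difference of Cxcl9 was 17.64, and 16.51 without IFN library 6. Ccl5 held 13.6, 19.7 and 136 CPM after IFN and 1.68, 1.36 and 3.43 CPM after IL4, and its log2 difference of 4.70 was 2.94 without IFN library 6. On the other side, Ccl22, a ligand of CCR4 on regulatory and type 2 T cells, held 9.01, 34.2 and 28.2 CPM after IL4 and 1.67, 3.46 and 4.40 CPM after IFN, a log2 difference of -2.91. Ccl24, an attractant of eosinophils, held 0.733, 1.21 and 2.54 CPM after IL4 and 1 count in all 3 IFN libraries together, a ratio of 84.7 with a 95% counting interval from 14.9 to 3381. Its fitted log2 difference was -5.99, and -5.36 without IL4 library 9 or -8.10 without IFN library 6. Ccl17, like Ccl22 a ligand of CCR4, held at most 1.81 CPM after IL4 and no counts after IFN (at least 25-fold higher after IL4).

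Among 15 cytokines and growth factors, 7 were higher after IFN and 3 after IL4. Tnf held 128, 110.2 and 104 CPM after IFN and 8.11, 12.5 and 8.83 CPM after IL4, with untreated libraries at 28.2 to 31.1 CPM. It was thus above the untreated level in each IFN library and below it in each IL4 library, at a log2 difference of 3.54 ± 0.27 (SE; adjusted p = 1.94e-07). Igf1, which encodes a growth factor of tissue repair, was its mirror image in order: 67.9, 97.9 and 80.1 CPM after IFN, 1109.9, 1194 and 1291 CPM after IL4 and 419 to 470.2 CPM untreated. The log2 difference was -3.87 ± 0.27 (SE; adjusted p = 8.58e-08). Tnfsf10, which encodes the death ligand TRAIL (6.06, or 6.75 without IL4 library 9), and Il18 (2.73) were higher after IFN, and Spp1, which encodes osteopontin (-1.44), and Tgfb1 (-0.67) were higher after IL4.

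Transcripts of the enzymes that compete for arginine differed between the states. Nos2, which encodes the inducible nitric oxide synthase (chr11:78920787-78960254), held 18.6, 16.4 and 63.0 CPM after IFN and a single count in the 3 IL4 libraries together, a ratio of 2019 with a 95% counting interval from 362 to 79806. Its fitted log2 difference was 10.62, and 9.72 without IFN library 6 or 12.51 without IL4 library 7. Arg1, which encodes arginase 1 (chr10:24915221-24927484), held 1377, 395 and 1234 CPM after IL4 and 2.12, 1.48 and 4.03 CPM after IFN, a log2 difference of -8.64 ± 0.89 (SE; adjusted p = 4.04e-06). Both genes were near 0 in untreated cells, with at most 0.044 CPM of Nos2 and 0.778 CPM of Arg1. IFN library 6 was the highest of its group for Nos2, and IL4 library 8 was the lowest of its group for Arg1. Slc7a2, which encodes an arginine transporter, was also higher after IL4 (132, 118 and 159 CPM, against 16.8, 22.1 and 18.2 CPM after IFN), a log2 difference of -2.84. The remaining 9 of the 12 tested genes of this list, among them the ornithine decarboxylase Odc1 (0.22) and the argininosuccinate synthase Ass1 (0.50), were not called. The called shares of the list were 8.33% on the IFN side and 16.7% on the IL4 side, against 11.4% and 9.09% of all tested genes.

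**Figure D3:**
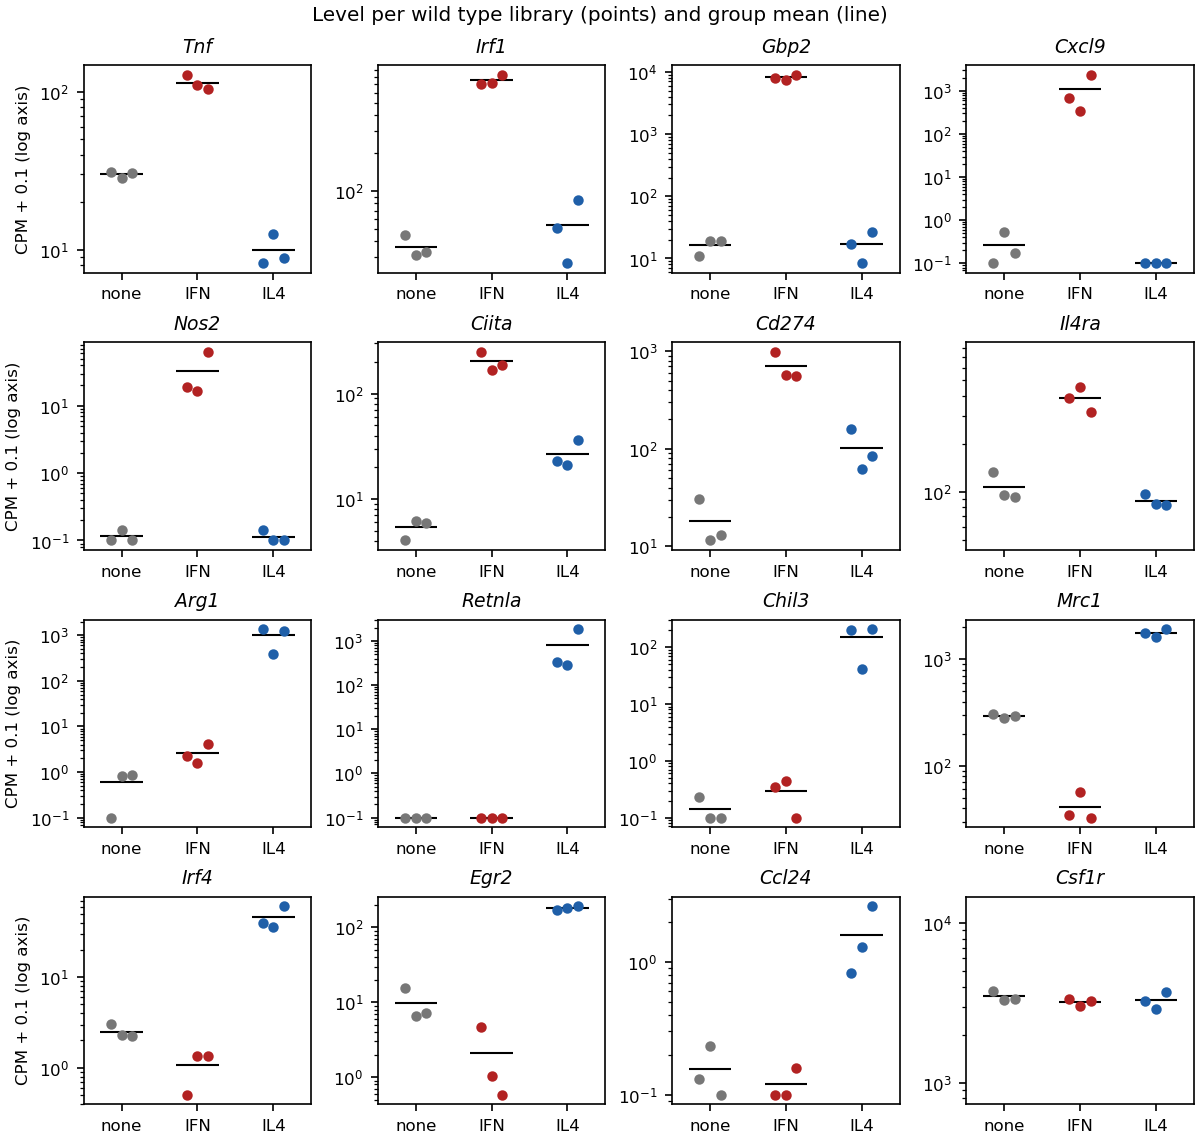
Points give the level of each wild type library as CPM + 0.1 on a log axis, in grey for untreated, red for IFN and blue for IL4 libraries, and black lines give the mean of 3 libraries. Genes of the IFN side (Tnf, Irf1, Gbp2, Cxcl9, Nos2) and Il4ra are high in the red points, Arg1, Retnla, Chil3, Mrc1, Irf4, Egr2 and Ccl24 are high in the blue points, Ciita and Cd274 exceed the untreated level in both, and Csf1r shows overlapping points.

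Secreted and enzymatic effectors of alternative activation were the list furthest to the IL4 side. Of 17 tested genes, 13 were higher after IL4 and 1 after IFN, with a median log2 difference of -5.02, which was the same with 4 genes without counts after IFN set at their lower bound. Retnla, which encodes the resistin-like protein FIZZ1, held 332, 285 and 1868 CPM after IL4 and no counts in any IFN or untreated library. That makes its mean at least 15636-fold higher after IL4 than after IFN, leaving out the spread between the IL4 libraries. Chil3, which encodes the chitinase-like protein YM1, held 203, 41.2 and 209 CPM after IL4 and at most 0.346 CPM after IFN, a log2 difference of -9.45 ± 1.32 (SE; adjusted p = 8.01e-05). Without IL4 library 9 the fitted log2 difference of Retnla, -17.19, was -15.76, and without IFN library 5 that of Chil3 was -10.06. Library 9 stood out for Retnla and library 8 was low for Chil3, and every IL4 library was nonetheless far above every IFN library for both. Reads of Chil3 may be shared with its close relative Chil4 (-8.32), and those of Ear2 with other eosinophil-associated ribonucleases. Mgl2, a galactose-binding lectin, held 56.3, 125 and 172 CPM after IL4 and no counts after IFN (at least 2225-fold higher). The exception was Tgm2, which encodes transglutaminase 2, an enzyme often used as a marker of alternative activation. It held 1975, 2019 and 1553 CPM after IFN and 400.0, 244 and 213 CPM after IL4, a log2 difference of 2.70 ± 0.30 (SE; adjusted p = 8.68e-06) towards IFN. The untreated range of 178 to 320.5 CPM overlapped with the IL4 libraries and lay below all IFN libraries.

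Lectin and scavenger receptors were mixed, with 8 of 20 higher after IL4 and 3 higher after IFN (median -0.90, or -0.72 with genes without counts after IFN at their bound). Mrc1, the mannose receptor CD206, held 1753, 1622 and 1931 CPM after IL4 and 34.2, 56.6 and 32.6 CPM after IFN, a log2 difference of -5.43 ± 0.44 (SE; adjusted p = 3.84e-07). Untreated libraries held 284 to 309 CPM, so the level was higher than that in each IL4 library and lower in each IFN library. Cd36, a receptor for oxidised lipids, differed less, with 1064, 1016 and 1084 CPM after IFN and 2399, 2523 and 1699 CPM after IL4 (log2 difference -1.06, adjusted p = 0.00493). Clec9a, a receptor for dead cells known from cross-presenting dendritic cells, went the other way, with 112, 32.2 and 80.0 CPM after IFN and at most 0.561 CPM after IL4, a log2 difference of 7.55. On the list of dendritic cell markers, Clec9a, Xcr1 (5.57) and Bst2 (2.01) were higher after IFN and Batf3 (-3.42), Zbtb46 (-3.52) and Cd24a (-2.92) were higher after IL4, 3 of the 7 tested in each direction. The summed level of the 7 genes was 412 to 886 CPM after IFN, 131 to 210 CPM after IL4 and 98.4 to 140 CPM untreated. Bst2 is also on the type I interferon list, and Clec9a made up at most 112 CPM of any IFN sum. The part of other cells in these values was not tested. Siglecf, a marker of eosinophils and alveolar macrophages, held 17.7, 25.5 and 27.7 CPM after IL4 and at most 1.72 CPM after IFN. Kit, the other tested member of the mast cell, basophil and eosinophil list, was not called (log2 difference 0.07, adjusted p = 0.98). Epx, Prg2 and Il5ra of the same list held no counts in any wild type IFN or IL4 library and were not tested.

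Transcription regulators of the IL4 state were higher after IL4 in 10 of 18 cases and in none after IFN, with a median log2 difference of -1.02. Irf4, a factor that acts downstream of STAT6, held 39.9, 36.0 and 60.9 CPM after IL4, 0.404, 1.24 and 1.26 CPM after IFN and 2.12 to 2.92 CPM untreated, a log2 difference of -5.56 ± 0.55 (SE; adjusted p = 2.82e-06). Egr2, an early response factor, held 172, 184 and 193 CPM after IL4 and 4.64, 0.940 and 0.482 CPM after IFN, a log2 difference of -6.47 (-7.96 without IFN library 4). All IL4 libraries were above the untreated range of both genes and all IFN libraries were below it. Nfil3 (-2.35) and the myeloid factor Cebpa (-2.06) were also higher after IL4. Stat6 itself (0.16) and the fatty acid receptor Pparg (-0.65) were not called.

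Of 11 receptor and kinase genes for interferons and IL4, none was higher after IL4 and 6 were higher after IFN, among them subunits of the IL4 receptor. Il4ra, the IL4 receptor alpha chain, held 389, 454 and 317 CPM after IFN and 96.6, 83.3 and 81.9 CPM after IL4, against 92.2 to 133 CPM untreated, a log2 difference of 2.15 ± 0.20 (SE; adjusted p = 1.74e-06). Its IL4 library 7 lay within the untreated range, IL4 libraries 8 and 9 lay below it, and all IFN libraries lay above it. Il13ra1 (2.85), its partner in the type II receptor, Il2rg (2.44), the common gamma chain, and Jak3 (1.48), the kinase bound to that chain, were higher after IFN as well. Ifnar2 (0.89), a chain of the type I interferon receptor, and Tyk2 (0.82), a kinase bound to that receptor, were the other members higher after IFN. The interferon gamma receptor chains Ifngr1 (-0.55) and Ifngr2 (-0.22) were not called.

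Feedback inhibitors of cytokine signalling were divided, with 8 of 14 higher after IFN and 3 higher after IL4. Socs3 held 123, 155 and 88.9 CPM after IFN and 10.8, 8.54 and 7.45 CPM after IL4, with untreated libraries at 9.69 to 17.7 CPM, a log2 difference of 3.77. Cish held 2.22, 2.97 and 1.32 CPM after IFN and 27.4, 52.6 and 34.2 CPM after IL4, a log2 difference of -4.12. The groups were apart for both, and all 3 IFN libraries of Cish also exceeded the untreated 0.222 to 0.546 CPM. Socs1, whose promoter is shown above, held 151, 282 and 318 CPM after IFN, 28.5, 53.6 and 76.5 CPM after IL4 and 1.2 to 2.19 CPM untreated, so that both groups were far above the reference and the IFN libraries were above all IL4 libraries (log2 difference 2.24 ± 0.41, SE; adjusted p = 0.000871).

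Sensors of innate immunity that were called lay on the IFN side. Of 18 genes of inflammasomes and pyroptosis, 10 were higher after IFN and none after IL4, and of 16 Toll-like receptors and adaptors, 8 and none. Nlrp3, the sensor of an inflammasome, held 120.5, 101 and 80.3 CPM after IFN and 26.0, 23.8 and 21.8 CPM after IL4, a log2 difference of 2.08. Tlr9, the receptor for unmethylated CpG DNA, held 126, 88.4 and 189 CPM after IFN and 6.77, 4.22 and 6.20 CPM after IL4, a log2 difference of 4.55. Every IL4 library was below the untreated ranges of 53.8 to 55.6 CPM for Nlrp3 and 19 to 23 CPM for Tlr9. Among 16 complement genes, 9 were higher after IFN and 1 after IL4. Cfb, factor B of the alternative pathway, held 12.2, 13.3 and 147 CPM after IFN and at most 0.178 CPM after IL4, and its log2 difference of 9.45 was 7.29 without IFN library 6 and 10.96 without IL4 library 9. The complement gene higher after IL4 was Itgax, which encodes the CD11c chain of complement receptor 4 (-3.02).

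Fc receptors bind the constant part of antibodies. On their list, which also holds a signalling chain that does not (Fcer1g), 4 of 7 tested genes were higher after IFN and 1 after IL4. Fcgr1, the activating high-affinity receptor for IgG, held 773, 752 and 1355 CPM after IFN and 33.6, 20.7 and 35.0 CPM after IL4, a log2 difference of 5.01 ± 0.33 (SE; adjusted p = 4.98e-08). Fcgr4, another activating receptor, held 884, 875 and 1442 CPM after IFN and 21, 14.8 and 30.9 CPM after IL4, a log2 difference of 5.58. Fcgr3, also an activating receptor, was not called (log2 difference 0.30, adjusted p = 0.337). Fcgr2b, the inhibitory receptor, held 10.4, 5.89 and 15.9 CPM after IFN and 288, 225 and 429.6 CPM after IL4, a log2 difference of -4.87 ± 0.49 (SE; adjusted p = 3.39e-06). The untreated ranges of 96.9 to 117, 34.0 to 39.6 and 26.6 to 40.8 CPM lay between the 2 states for Fcgr1, Fcgr4 and Fcgr2b.

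**Figure D4:**
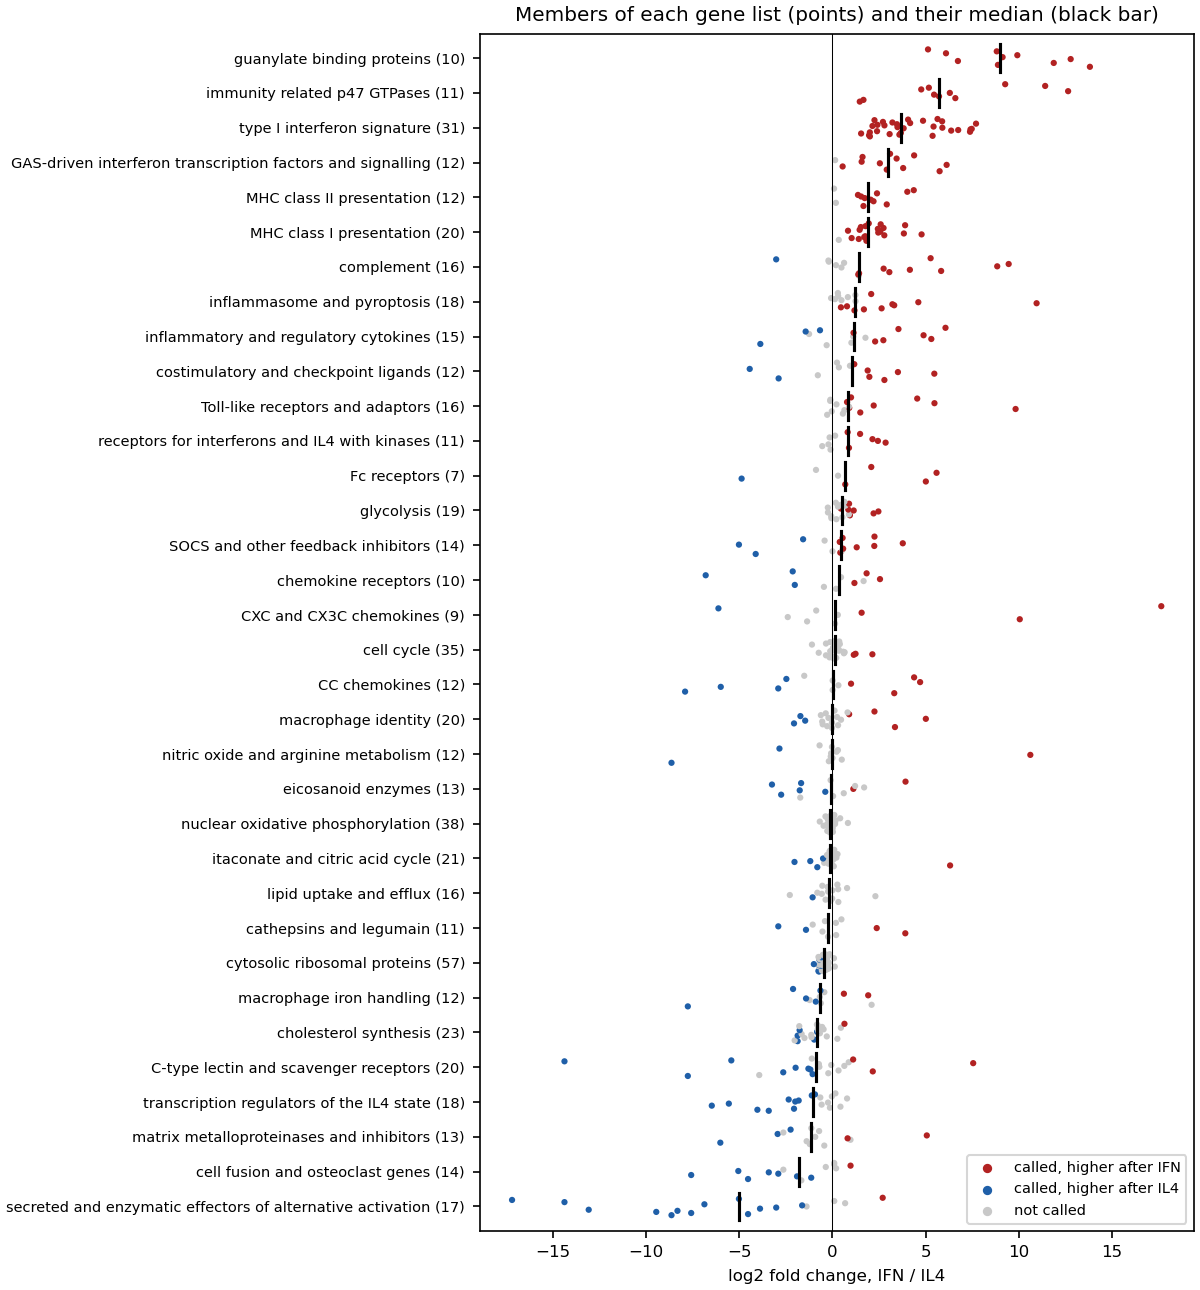
Each row is 1 gene list with the number of its tested members in brackets, points give the members' log2 fold changes, IFN over IL4 (red and blue where called, grey where not), and the black bar is the median of the list. Guanylate binding proteins lie furthest to the right (median 9.00) and effectors of alternative activation furthest to the left (median -5.02), while oxidative phosphorylation and cell cycle genes gather around 0.

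Of 19 glycolysis genes, 7 were higher after IFN (36.8%) and none after IL4, with a median log2 difference of 0.53. Hk3, a hexokinase of blood cells, held 2019, 1719.5 and 1837 CPM after IFN and 486, 391 and 330.2 CPM after IL4, a log2 difference of 2.21. Pfkfb3, which makes an activator of phosphofructokinase, held 141, 99.3 and 109.8 CPM after IFN and 26.7, 21.6 and 15 CPM after IL4, a log2 difference of 2.46. Both were above the untreated range in every IFN library. In the list of the citric acid cycle and itaconate, 1 of 21 genes was higher after IFN and 4 were higher after IL4. Acod1, the enzyme that makes itaconate from an intermediate of the cycle, held 222, 224 and 669.5 CPM after IFN and 2.76, 3.07 and 8.16 CPM after IL4, a log2 difference of 6.31 (5.57 without IFN library 6 and 6.99 without IL4 library 9). Idh1, the cytosolic isocitrate dehydrogenase, held 59.7, 56.9 and 52.4 CPM after IFN and 231, 171 and 292 CPM after IL4, a log2 difference of -2.04. The untreated Idh1 range of 176 to 196 CPM overlapped with the IL4 libraries and lay above all IFN libraries. None of 38 nuclear genes of oxidative phosphorylation was called (median -0.11).

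Cholesterol synthesis genes leaned to the IL4 side, with 5 of 23 higher after IL4, 1 (Tm7sf2) higher after IFN and a median of -0.82. Hmgcs1, an early enzyme of the pathway, held 25.3, 26.8 and 22.6 CPM after IFN and 55.5, 92.2 and 125 CPM after IL4, a log2 difference of -1.87 (adjusted p = 0.0027). The untreated libraries, at 32.8 to 77.8 CPM, were above all IFN libraries and overlapped with the IL4 libraries. The call of Tm7sf2 (log2 difference 0.64, adjusted p = 0.041) was lost whichever of the 6 libraries was left out, with adjusted p from 0.053 to 0.15, and that of Mvd (-1.76, adjusted p = 0.0252) was lost without library 4, 5, 6, 8 or 9, with adjusted p from 0.056 to 0.14. Of 35 cell cycle genes 3 were called, all cyclins higher after IFN: Ccnd1 (1.14), Ccnd2 (2.14) and Ccne1 (1.24). That is 8.57%, below the 11.4% of all tested genes called higher after IFN. In the knockout, 1 gene of the list was called in each direction, with a median of -0.46. The proliferation marker Mki67 held 129, 65.3 and 70.7 CPM after IFN and 197, 198 and 173 CPM after IL4, and was not called (log2 difference -1.10, adjusted p = 0.192). The calls of Ccnd2 and Ccne1 depended on single libraries: Ccnd2 (log2 difference 2.87 without IL4 library 9) had an adjusted p of 0.052 without IFN library 5, 0.068 without IL4 library 7 and 0.069 without IL4 library 8, and Ccne1 reached 0.14 without IL4 library 9, 0.12 without IFN library 5, 0.083 without IL4 library 7 and 0.061 without IFN library 6.

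Iron handling, proteases and cell fusion each held genes called in both directions. Tfrc, the transferrin receptor that brings iron into cells, held 372, 315 and 470.2 CPM after IL4 and 76.5, 126 and 64.4 CPM after IFN, a log2 difference of -2.11, and Slc11a1, the iron and manganese pump of the phagosome known as NRAMP1, differed by 1.92 towards IFN. Of the 12 iron genes, 2 were higher after IFN (16.7%) and 5 after IL4 (41.7%). Of 13 matrix metalloproteinases and inhibitors, 2 were higher after IFN (15.4%) and 3 after IL4 (23.1%). Of 11 cathepsins and legumain, 2 were called in each direction (18.2%). Over all tested genes the shares were 11.4% and 9.09%, and the counts of these short lists were not tested against them. Mmp12, the macrophage elastase, held 1977, 5034 and 1748 CPM after IL4 and 56.6, 52.2 and 26.5 CPM after IFN, a log2 difference of -6.02 ± 0.49 (SE; adjusted p = 4.05e-07), or -5.36 without IL4 library 8, its highest. Ctsc, the protease that activates granule serine proteases, went the other way, with 2759, 3137 and 3189 CPM after IFN and 171, 174 and 259.9 CPM after IL4, a log2 difference of 3.91. Of 14 genes of cell fusion and osteoclasts, 7 were higher after IL4 and 1 after IFN, with a median of -1.79. Atp6v0d2, a proton pump subunit required for macrophage fusion, held 721, 723 and 688 CPM after IL4 and 43.3, 21.6 and 27.4 CPM after IFN (log2 difference -4.53). Cdh1, which encodes E-cadherin, held 32.3, 48.8 and 32.2 CPM after IL4 and at most 0.346 CPM after IFN, a log2 difference of -7.58 (-8.38 without IFN library 5). All IL4 libraries were far above all IFN libraries for both, and untreated cells held 106 to 167 CPM of Atp6v0d2 and 0.321 to 0.919 CPM of Cdh1.

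Some of the genes that differed most lie outside these lists. By fitted difference, Slfn1 of the Schlafen family, Serpina3f, a serine protease inhibitor, and Clic5, a chloride intracellular channel protein, were among the 12 highest on the IFN side. Serpina3f held 404, 346 and 475 CPM after IFN and at most 0.401 CPM after IL4, a log2 difference of 10.44. Without IFN library 6 the value of Slfn1, 11.82, was 10.03, and without IL4 library 7 that of Clic5, 10.07, was 12.35. On the IL4 side, Scn3a, a sodium channel subunit, held 12.1, 12.3 and 32.8 CPM after IL4 and no counts after IFN (at least 359.8-fold higher), and Cldn11, a tight junction protein, held 4.01, 4.77 and 13.8 CPM and no counts (at least 142-fold higher). Without IL4 library 9 their fitted log2 differences of -11.75 and -10.41 were -11.10 and -9.63. Myrf, Msx3 and Tuba8, better known from glia, the neural tube and testis, held between 2.24 and 9.50 CPM after IL4 and no counts in any IFN library. The ranking within this group depends on the fit's prior count, because 1 state held few or no counts.

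For most called genes the mean of the untreated libraries lay between the means of the 2 states or equalled the mean of 1 of them. Equal means were counted as between, as for Gbp10 and Retnla, which held no counts untreated and in their lower state. The untreated mean lay between the IFN and IL4 means in 949 of the 1429 genes higher after IFN (66.4%) and in 826 of the 1138 genes higher after IL4 (72.6%), against 38.5% of all tested genes. It lay below both states in 408 genes higher after IFN (28.6%), as for Irf1, Ciita and Cd274, and in 130 genes higher after IL4 (11.4%), as for Chil3 and Arg1. Over all tested genes that share was 29.4%, close to that of the genes higher after IFN. It lay above both states in 72 genes higher after IFN (5.04%) and in 182 genes higher after IL4 (16%), against 32.1% of all tested genes. Called genes were selected for a gap between the IFN and IL4 means, and an untreated mean falls within a wider gap more readily. The shares of all tested genes, most of them not called, are therefore not a matched reference. Their distance from the shares of called genes cannot show that untreated cells were intermediate. All these shares describe places of means without a test, and no fold against untreated cells was tested here.

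Within the IFN group, library 6 was the highest for 817 of the 1429 genes higher after IFN (57.2%), library 4 for 400 (28%) and library 5 for 212 (14.8%). Among tested genes that were not called, library 6 was the highest IFN library in 35.5%. Library 6 is also the IFN library without Y-linked transcripts, and with 1 such library in the group the 2 properties cannot be told apart. On the IL4 side the 3 libraries were the highest in 30.4%, 36.3% and 33.3% of the 1138 genes. Without library 6 the test called 2102 genes, of which 1966 were among the 2567.

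The knockout libraries measured the same contrast in cells of another genotype, but not as an independent repeat. Libraries with the same number deviated together across genotypes for numbers 4 to 9 (correlations of 0.135 to 0.586). Both contrasts also share 1 estimate of spread. Y-linked transcripts were under 1 CPM in every knockout library but present in wild type libraries 4, 5, 7 and 8. The genotypes thus differ in this property too. Rpl13a, the targeted gene, held 188.9 to 425 CPM in the 3 knockout IFN libraries and 206 to 606 CPM in the 3 knockout IL4 libraries, against 437 to 618 and 598 to 867 CPM in the wild type. The knockout IL4 library 9 lay within the wild type range, so the level of this gene alone does not separate the genotypes. Lyz2, the lysozyme gene of macrophages, separated them, at most 7.12 CPM in every knockout library against at least 2881 CPM in every wild type library. In the knockout, 2723 genes were called (21.8%), 1500 higher after IFN (12%) and 1223 higher after IL4 (9.77%). On log2(TPM + 1) with limma, that split was 1133 and 1680, and the median of all genes shifted to -0.13. Of the 1429 wild type genes higher after IFN, 1233 were called in the same direction in the knockout (86.3% of them and 82.2% of the knockout's calls). Of the 1138 genes higher after IL4, 897 were (78.8% and 73.3%).

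**Figure D5:**
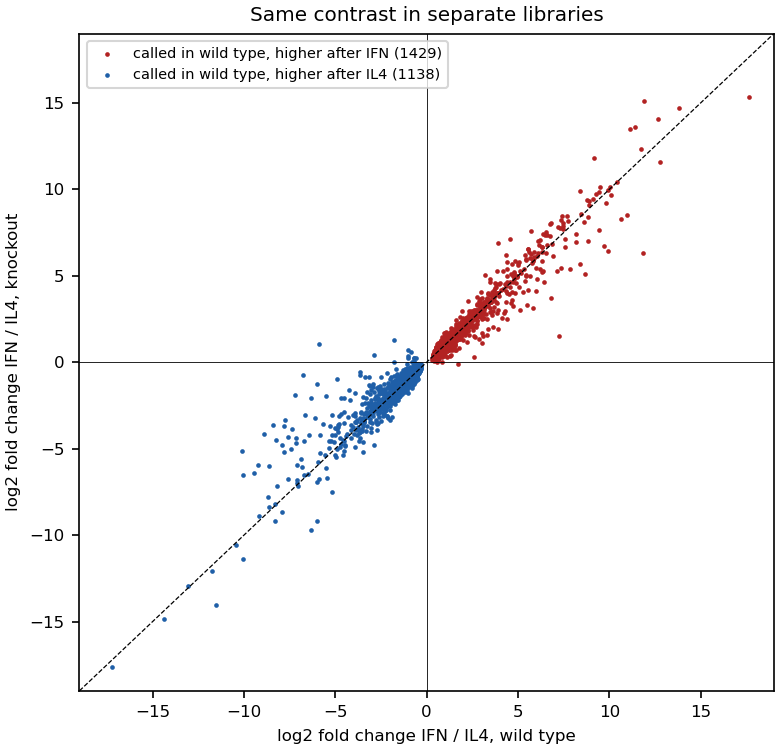
Each point is 1 of the 2567 genes called in wild type cells, with its log2 fold change, IFN over IL4, in wild type libraries on the horizontal axis and in knockout libraries on the vertical axis, and the dashed line marks equal values. Of the 1429 red points 1428 lie above 0 in the knockout, and of the 1138 blue points 1125 lie below 0.

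No gene's difference between IFN and IL4 was called as different between the genotypes (0.0%), and 152 genes had an unadjusted p under 0.05 (1.21%). With no difference in any gene, a share near the threshold of 0.05 would be due. The smaller share means that the test was strict here, and the lack of calls does not show that the responses were equal. DESeq2 called 4 genes, and edgeR called 4 when wild type IFN library 6 was left out. The gene of lowest p was Gm2000, a predicted gene, which held 3.33, 2.13 and 8.67 CPM after IFN and 20.4, 15.8 and 12.2 CPM after IL4 in the wild type. Its log2 difference was -1.78 in the wild type (adjusted p = 0.00701) and 1.30 in the knockout (adjusted p = 0.0405), and it was the 1 gene called in opposite directions. Without wild type IFN library 6 the wild type values were -2.56 for Gm2000 and -1.22 for Rps27 (adjusted p = 0.0014). Rps27, a ribosomal protein gene, followed by p, at -0.75 in the wild type (adjusted p = 0.062) and 1.03 in the knockout (adjusted p = 0.0112), and Gm2000 and Rps27 were the 2 genes called in both of those alternatives. Of 57 cytosolic ribosomal protein genes, none was higher after IFN and 7 were higher after IL4 in the wild type (12.3%, against 9.09% of all genes; median -0.45), and 1 and none in the knockout (median -0.15). Rpl38 was the member with the largest of these differences, with 60.9, 69.4 and 127 CPM after IFN and 162, 189 and 162 CPM after IL4 (log2 difference -1.0, adjusted p = 0.0186), and its call was lost without IFN library 4 (adjusted p = 0.088), IFN library 5 (0.085) or IL4 library 8 (0.066). The calls of Rpl12 (-0.75), Rpl30 (-0.60) and Rpl32 (-0.69) were each lost without any of 4 single libraries: 4, 6, 8 or 9 for Rpl12 (adjusted p from 0.063 to 0.12), and 4, 5, 8 or 9 for Rpl30 (0.062 to 0.11) and Rpl32 (0.054 to 0.12).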

How the data were processed

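Poly-A RNA was sequenced from 18 libraries of mouse bone marrow derived macrophages. The authors deposited expected counts per gene from RSEM 1.2.3, made from reads aligned with Bowtie 0.12.8 to mm10, per the submitters' processing notes. They also deposited TPM values, which correct for transcript length and scale all libraries to 1 total, and were used here only for alternatives. Rounding to whole numbers touched 21.54% of the values. Reads shared by near-identical genes are split by RSEM's model. Whether counting used the strand is not given in the sources used here.

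Genes were filtered with filterByExpr and tested with edgeR 4.0.16 (TMM scaling, robust quasi-likelihood, R 4.3.3) over all 18 libraries with 1 coefficient per group, as contrasts of IFN against IL4 in each genotype and of the difference between genotypes. P-values were adjusted by Benjamini-Hochberg over all 12514 genes. DESeq2 1.42.0 and limma 3.58.1 on log2(TPM + 1) or log2(TPM + 0.1) served as alternatives, besides other scaling, filters, covariates, subsets of libraries and leaving out each library. A bound against a group without counts divides the mean of the other group by 3 counts over the empty group. Bounds and intervals cover counting error only, not the spread between libraries. On data simulated for the wild type contrast over 12514 genes, the test recovered 2.98% of genes changed 1.5-fold, 40.3% of those changed 2-fold and 80.3% of those changed 4-fold. Far fewer genes were changed in the simulation than were called in the data. The adjustment for many tests was therefore stricter there, and these shares may understate the recovery in the data.

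The gene lists and the genes named were chosen with earlier results of these data known. Named genes are the 12 with the largest difference in each direction among called genes with groups apart and 5 CPM or more on average in their higher state, up to 4 genes of lowest p from each list, whole lists of 14 genes or fewer, preset genes, and the 4 genes of lowest p between genotypes. Eif2ak2, Oasl1, Spp1, Tgfb1, Chil4, Stat6, Pparg, Itgax, Mpeg1 and Csf2rb fall outside that rule and were named after their values were seen. Across genotypes, libraries with the same number deviated together for numbers 4 to 9 (correlations of 0.135 to 0.586). Coordinates are those of GENCODE vM21 (GRCm38). The result of 1 gene is not reported here.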

Additional observations from a re-analysis of the deposited data

How the results depend on the processing

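Scaling, tool, filter and covariate changed the wild type count of 2567 genes by less than 1.5 times, from 2326 (limma on log2(TPM + 1)) to 2998 (DESeq2), and no called gene changed sign under any of them. It fell to 697 against a 2-fold threshold and to 1184 with only the libraries holding Y-linked transcripts, an alternative chosen after seeing the data. Leaving out 1 library gave 2040 to 2441 genes, and 2152 to 2752 in the knockout, where the 6 knockout IFN and IL4 libraries alone gave 1699 against 2723. No paired analysis was run, because the labels state no pairs and the wild type IFN and IL4 libraries carry different numbers, 4 to 6 and 7 to 9. Different numbers do not exclude pairs taken in order, and IFN library 6 and IL4 library 9 both lacked Y-linked transcripts. Such a pairing was not tested. For the difference between genotypes, the number as a replicate block gave 0 genes, DESeq2 gave 4, and leaving out 1 library gave 0 to 4. The planned covariate for Y-linked transcripts could not be fitted, since 1 of its genes held counts in every library, and it was redefined after seeing the data. Csf1r, not called, changed sign from -0.03 to 0.018 under both limma fits, to 0.061 with only the libraries holding Y-linked transcripts, and to 0.0063 and 0.072 without IFN library 5 or IL4 library 9 (range with 1 library left out, -0.11 to 0.072). Adgre1, not called, changed sign to 0.15 without IFN library 4 and 0.063 without IL4 library 9 (range -0.26 to 0.15). At this spread between libraries, 1.5-fold differences were mostly missed in the simulation, which changed far fewer genes than were called in the data.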
